A study of Rattus norvegicus with 5 samples.

Results

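The broad chromosomal profile of PARP1 ChIP-seq was compared between 2 central amygdala libraries, one from rats that strongly preferred a compartment paired with cocaine (high preference) and one from rats that did so weakly (low preference). Chromosomes 1 to 20 of the rat build rn4 were cut into 25590 bins of 100 kb, and a bin was kept when it held over 50 pileups in both libraries. This left 24955 bins. Of the 635 bins left out, 569 were at or under 50 in both libraries, 22 were over 50 in the high preference library alone and 44 in the low preference library alone. The choice of bins used only this minimum, but a bin with a large difference can fail it in the lower library. The 42 bins whose lower count was just inside the minimum, up to 60, had a median log2 ratio of high to low preference of -0.043. The 52 bins whose lower count was just outside it, from 41, stood at -0.062.

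ChIP-seq sequences the DNA that an antibody pulls down, here an antibody against PARP1, so that stretches of the genome carrying the protein give more reads. The animals were male Sprague Dawley rats, whose age is not given in the sources used here. All went through 10 days of place preference training, in which an injection was followed by 20 min in a compartment, and the test of preference, 24 h after training ended, took 15 min. Rats of the high and low preference groups received intraperitoneal cocaine (15 mg/kg) and saline on alternate days, and the control rats received saline only. Brains were frozen right after the test and both central amygdalae were taken. Each library pooled tissue from 2 rats. There was 1 library of high preference rats, 1 of low preference rats and 2 of saline rats, called saline replicates 1 and 2. No test between high and low preference was run and no p-value is given, since neither group has a replicate, and each difference below compares 2 libraries. The only spread within a group is that of the saline libraries. Whether a difference belongs to the preference group or to the library cannot be told apart.

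PARP1 is an abundant nuclear enzyme that adds chains of ADP-ribose to itself, to histones and to other proteins, is activated by DNA breaks and also takes part in opening chromatin and regulating transcription. In conditioned place preference an animal learns to link a place with a drug, and the time it later spends there is a measure of the retrieved memory. The central amygdala is a largely GABAergic output nucleus involved in responses to emotionally charged and drug-paired cues. Since PARP1 binds nucleosomes and DNA over much of the genome, a broad comparison asks whether pileups differ over large domains or whole chromosomes. Genes are not named, because no gene annotation of rn4 was used here. Homogenised tissue was used, so changes in cell makeup and in PARP1 per cell cannot be told apart.

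The quantity compared is the number of pileups, small heaps of reads, in a bin. The deposited lists carry a running number that skips values, and the skipped numbers were read as pileups too low to be listed. On chromosomes 1 to 20 the numbered pileups came to 10799688 and 11707500 in the high and low preference libraries and to 5467139 and 11634809 in saline replicates 1 and 2. Of these, 30.1%, 33.5%, 14.0% and 33.1% were listed as peaks. Most were thus unlisted, and no input was subtracted. Whether the number of pileups follows PARP1 or background reads was not tested. A kept bin held a median of 453 pileups in the high preference library and 491 in the low preference library, with a 5th to 95th percentile of 243 to 536 and of 264 to 580. Ratios were taken after scaling both libraries to equal totals over the kept bins. Intervals in brackets are exact 95% binomial intervals of such ratios, which cover counting error only. They make no allowance for regions having been chosen for a large ratio, and such ratios tend to be exaggerated. Levels across all 4 libraries are given as normalised pileups, the number per 10000000 numbered pileups of that library on chromosomes 1 to 20.

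The high and low preference profiles were nearly alike at 100 kb. The log2 ratio of high to low preference had an SD of 0.102 over the 24955 bins, and counting error alone, with pileups taken as independent, would give 0.101. This near match is an average over sparse and dense bins, which differed as given below. The 2 libraries were within 1.1-fold of each other in 84.6% of bins. The comparison of the low preference library with saline replicate 2 was set as the noise reference. These libraries have a similar depth but come from cocaine-trained and saline-only rats. Their spread may thus hold a treatment difference as well as noise. This reference comparison had an SD of 0.106 against a counting SD of 0.0991, with 82.9% of 24980 bins within 1.1-fold. It shares the low preference library with the main comparison, so the 2 sets of values are not independent. High preference over saline replicate 2 gave an SD of 0.109. The saline pair, of the same group, was wider at 0.179 against a counting SD of 0.122, with 59.2% of 24721 bins within 1.1-fold. Saline replicate 1 is the shallowest library, and the pairs of high and of low preference with it had SDs of 0.172 and 0.173. The spread between high and low preference was thus the smallest of the 6 pairs.

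**Figure D1:**
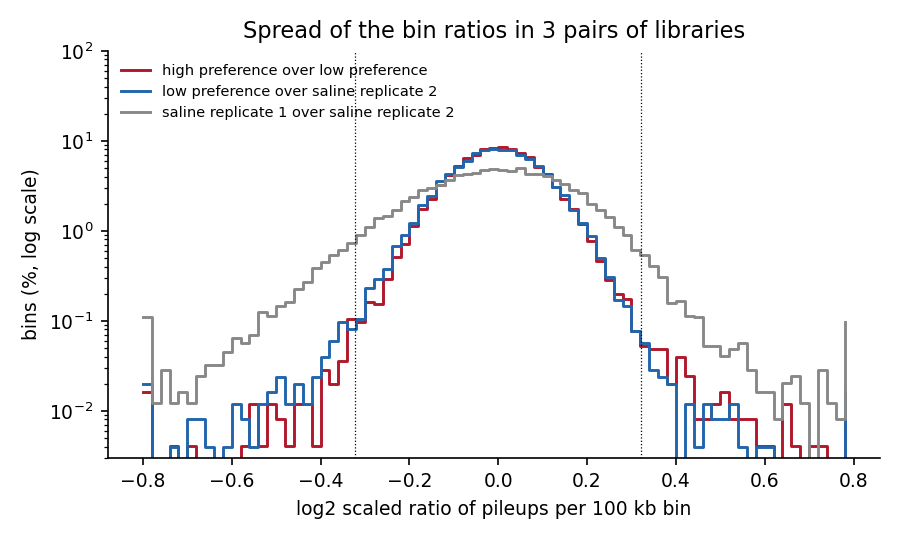
Distribution of the log2 scaled ratio of pileups per 100 kb bin (x axis) as a percentage of kept bins on a log axis (y axis) for high over low preference, low preference over saline replicate 2 and saline replicate 1 over saline replicate 2, with bins beyond 0.8 in either direction gathered in the end steps and dotted lines where a library is 25% higher. The first 2 curves, with SDs of 0.102 and 0.106, nearly coincide and the saline pair, with an SD of 0.179, is wider.

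Few single bins stood apart. The high preference library was at least 25% higher in 81 bins (0.325% of those kept) and the low preference library in 65 (0.26%), together 146 (0.585%). In the reference comparison the low preference library was higher in 50 bins (0.2%) and saline replicate 2 in 113 (0.452%), together 163 (0.653%). Between the saline libraries 553 bins were higher in replicate 1 (2.24%) and 1039 in replicate 2 (4.2%), together 1592 (6.44%). At 1.5-fold, 10 bins were higher in high preference (0.0401%) and 6 in low preference (0.024%), against 6 (0.024%) and 15 (0.06%) in the reference comparison. The number of bins past a 25% difference was thus lowest between high and low preference.

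The bins past a 25% difference lay mostly where pileups were scarce. Kept bins were divided into 10 deciles by the mean level of the saline libraries, which do not enter the ratio. The sparsest decile held 70 of the 81 bins higher in high preference (86.4%) and 56 of the 65 higher in low preference (86.2%). Their median counts were 152 pileups in high and 120 in low preference for the first set, and 128 and 190 for the second. In the sparsest decile the ratio had an SD of 0.169 against a counting SD of 0.145, and in the densest 0.0836 against 0.0881. In every decile but the sparsest the SD was under the counting SD. The near match over all bins thus averages a wider and a narrower spread, and the counting SD is only approximate for these pileups. Bins higher in high preference were spread over 20 chromosomes, with 22 of them (27.2%) on chromosome 1, which held 10.4% of kept bins. Those higher in low preference were spread over 18 chromosomes, with 12 (18.5%) on chromosome 1. Few adjoined each other, since 9 of the 81 and 4 of the 65 had a neighbour past the fold in the same direction. Of 265 windows of 10 Mb, 172 held no such bin. The busiest were the first 10 Mb of chromosome 7, with 6 of 76 bins (7.89%), chromosome 1 from 50 to 60 Mb, with 5 of 84 (5.95%), and chromosome 1 from 60 to 70 Mb, with 5 of 86 (5.81%).

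Some of the same bins also differed between the saline libraries. Of the 81 bins higher in high preference, 54 had over 50 pileups in both saline libraries, and 11 of these (20.4%) were at least 25% higher in saline replicate 1 and 1 (1.85%) in saline replicate 2. Of the 65 higher in low preference, 48 had a saline ratio, and 4 (8.33%) were higher in saline replicate 1 and 7 (14.6%) in saline replicate 2. Over all kept bins these shares were 2.22% and 4.2%, but most of the bins in both sets are sparse. In the sparsest decile 175 of 2257 bins (7.75%) were at least 25% higher in saline replicate 1 and 333 (14.8%) in saline replicate 2, close to the shares in the set higher in low preference. The set higher in high preference was unlike the decile, at 20.4% and 1.85%, though these shares rest on 11 bins and 1 bin. The median log2 ratio of saline replicate 1 over 2 was 0.060 in the first set and 0.036 in the second.

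The 5 bins with the largest ratio of high to low preference were small counts on 4 chromosomes. Counts are pileups before scaling, first of the high and low preference libraries and then of saline replicates 1 and 2. On chromosome 8 at 42200001 to 42300000 they were 155, 88, 59 and 112, a ratio of high to low preference of 1.91 (1.46 to 2.51). On chromosome 17 at 49200001 to 49300000 they were 127, 78, 34 and 101, a ratio of 1.76 (1.32 to 2.37). In these 2 bins saline replicate 2, at 96.3 and 86.8 normalised pileups, lay between high preference, at 144 and 118, and low preference, at 75.2 and 66.6. On chromosome 1 at 49900001 to 50000000 the counts were 106, 69, 52 and 85, a ratio of 1.67 (1.22 to 2.29). On chromosome 17 at 44500001 to 44600000 they were 198, 131, 80 and 142, a ratio of 1.64 (1.31 to 2.06). On chromosome 16 at 27400001 to 27500000 they were 113, 77, 46 and 121, a ratio of 1.59 (1.18 to 2.15), and here saline replicate 2 stood with high preference at 104 and 105 normalised pileups. All 5 bins lay in the sparsest decile.

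The 5 bins with the largest ratio in the opposite direction reached higher folds, and 3 of them lay close together on chromosome 1. With counts in the same order, the bin at 61900001 to 62000000 held 76, 225, 0 and 252 pileups, a ratio of low to high preference of 2.73 (2.10 to 3.59). The bin at 61600001 to 61700000 held 123, 318, 90 and 299, a ratio of 2.39 (1.93 to 2.96), and that at 61800001 to 61900000 held 151, 270, 102 and 317, a ratio of 1.65 (1.35 to 2.03). In these 3 bins saline replicate 2 was close to low preference and saline replicate 1 was lower. The 0 of saline replicate 1 stands for a bin with no listed peak, whose unlisted pileups are counted into the next bin. The others were on chromosome 17 at 72300001 to 72400000, with 77, 190, 95 and 101 pileups and a ratio of 2.28 (1.74 to 3.01), and on chromosome 4 at 98800001 to 98900000, with 58, 114, 60 and 77 and a ratio of 1.81 (1.31 to 2.53). The chromosome 4 bin follows one with no listed peak, whose unlisted pileups are counted into it.

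A pair of stretches was examined more closely, chosen after their values were seen. The largest fold among bins over 50 in at least 1 of the 2 libraries fell in a bin left out by the minimum, on chromosome 1 at 61500001 to 61600000. It held 14 and 271 pileups in the high and low preference libraries and 0 and 302 in saline replicates 1 and 2. The ratio of low to high preference was 17.9 (10.5 to 33.1), and the bin held 1, 49, 0 and 68 listed peaks. Because unlisted pileups pass to the next bin with a listed peak, it was summed with its neighbour. Over chromosome 1 at 61500001 to 61700000 the high and low preference libraries stood at 127 and 503 normalised pileups and saline replicates 1 and 2 at 165 and 517. High preference and saline replicate 1 were thus low there, and low preference and saline replicate 2 were high.

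Within this chromosome 1 stretch the saline libraries differed about as much as the cocaine libraries. Low preference was 3.97-fold above high preference (3.29 to 4.81), and saline replicate 2 was 3.14-fold above saline replicate 1 (2.51 to 3.96). The ratio of low preference to saline replicate 2 was 0.974 (0.868 to 1.09) and that of high preference to saline replicate 1 was 0.771 (0.587 to 1.02), and both intervals include 1. The longest interval without a listed peak between 61400000 and 61700000 was 171 kb in high preference (61500518 to 61671121) and 192 kb in saline replicate 1 (61490105 to 61682091). In low preference and saline replicate 2 it was 13.4 kb and 16.7 kb. Saline replicate 1 has the fewest listed peaks, with 14.0% of its numbered pileups listed, which can lengthen such intervals. The next bin, at 61700001 to 61800000, held 424, 430, 192 and 464 pileups and showed no such difference, with a ratio of high to low preference of 1.07 (0.932 to 1.23).

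A similar split of libraries returned further along chromosome 1. At 61800001 to 62100000 the high and low preference libraries stood at 478 and 719 normalised pileups and saline replicates 1 and 2 at 457 and 807. The ratio was 1.51 (1.35 to 1.68) for low over high preference and 1.77 (1.53 to 2.04) for saline replicate 2 over 1. Between 61800000 and 62000000 the longest interval without a listed peak was 138 kb in high preference and 173 kb in saline replicate 1. The latter ran to the end of the searched range and may be longer. In low preference and saline replicate 2 the longest intervals were 19.3 kb and 29.3 kb. At 63600001 to 63800000 the levels were 234, 382, 267 and 455, with ratios of 1.63 (1.39 to 1.91) and 1.70 (1.42 to 2.06). Low preference was below saline replicate 2 at both places, with ratios of 0.891 (0.811 to 0.979) and 0.840 (0.739 to 0.954). In all 3 places high preference and saline replicate 1 were the lower libraries, so the split crossed the study's groups.

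On chromosome 17 the split was another one. At 72200001 to 72500000 the cocaine libraries stood at 243 (high preference) and 415 (low preference) normalised pileups and saline replicates 1 and 2 at 417 and 231. Low preference was 1.71-fold above high preference (1.47 to 2.00) and saline replicate 1 was 1.80-fold above saline replicate 2 (1.5 to 2.16). Low preference and saline replicate 1 were level, at 0.996 (0.849 to 1.17), and high preference and saline replicate 2 were level, at 1.05 (0.882 to 1.248). In each of the 4 places the saline libraries, from rats with no cocaine, differed by 1.70-fold to 3.14-fold, and the cocaine libraries by 1.51-fold to 3.97-fold. What distinguishes these pools of 2 rats in these stretches was not tested.

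**Figure D2:**
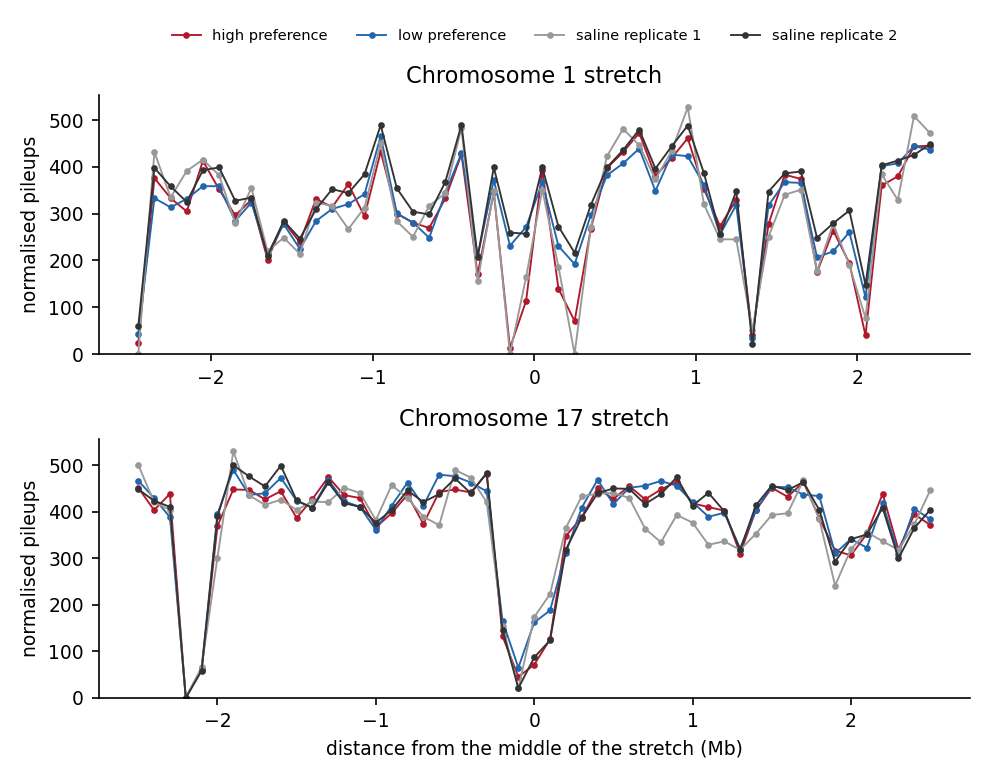
Normalised pileups (y axes) in 100 kb bins by distance from the middle of the stretch in Mb (x axes), with 1 line per library, for the chromosome 1 and chromosome 17 stretches. Near the middle of the upper panel high preference and saline replicate 1 drop while low preference and saline replicate 2 do so less, and at the middle of the lower panel high preference and saline replicate 2 lie below the other 2.

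Sustained differences were rare. A run was defined as at least 5 adjacent kept bins that were each at least 1.1-fold higher in the same library. High preference had 3 runs and low preference had 0, together 16 bins (0.0641% of those kept). In the reference comparison there were 3 runs higher in low preference and 5 higher in saline replicate 2, with 46 bins (0.184%). The saline pair had 15 and 21 runs, with 200 bins (0.809%). The longest run between high and low preference had 6 bins, against 8 in both other comparisons.

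The 3 runs higher in high preference were ones in which the low preference library stood below the others. Its own counts helped to choose these runs, which favours low values of this library there. On chromosome 16 at 27200001 to 27700000 normalised pileups were 609 and 453 in the high and low preference libraries and 584 and 616 in saline replicates 1 and 2. The ratio of high to low preference was 1.35 (1.2 to 1.51). High preference was level with saline replicate 2, at 0.989 (0.888 to 1.1), and low preference was below it, at 0.735 (0.655 to 0.823). Listed peaks, which are a part of the same pileups, gave a ratio of high to low preference of 1.92 (1.48 to 2.52) over this run. This run includes the chromosome 16 bin described above.

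The runs on chromosomes 1 and 18 were smaller in fold. On chromosome 1 at 164000001 to 164500000 normalised pileups were 2058 and 1768 in the high and low preference libraries and 1935 and 2040 in saline replicates 1 and 2. The ratio of high to low preference was 1.16 (1.1 to 1.24). On chromosome 18 at 400001 to 1000000 they were 1400.0 and 1186, and 1452 and 1345, with a ratio of 1.18 (1.1 to 1.27). High preference over saline replicate 2 was 1.01 (0.952 to 1.07) in the first and 1.04 (0.969 to 1.12) in the second. Low preference over saline replicate 2 was 0.867 (0.817 to 0.920) and 0.881 (0.819 to 0.948). The ratio of listed peaks, again a part of the same pileups, was 1.22 (1.09 to 1.365) on chromosome 1. On chromosome 18 it was 1.13, and its interval of 0.983 to 1.3 includes no difference. In all 3 runs both saline libraries had more normalised pileups than the low preference library, whose low counts helped to choose the runs.

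Over wider windows the high and low preference libraries departed slightly more from counting error. Kept bins were summed in windows with at least 80% of their bins kept. The SD of the log2 ratio of high to low preference fell from 0.0710 at 200 kb to 0.0487 at 500 kb, 0.0372 at 1 Mb and 0.0167 at 10 Mb. Relative to counting error it was 1.02, 1.11, 1.2 and 1.71 times as large. In the reference comparison it was 0.0510 at 1 Mb and 0.0285 at 10 Mb, 1.68 and 2.97 times counting error. In the saline pair it was 0.0718 and 0.0427, 1.9 and 3.56 times counting error. Neighbouring bins were little alike in the high to low ratio. Pearson's correlation of a bin's log2 ratio with that of the next bin, a description across bins that are not replicates, was 0.051 (24570 pairs) for high over low preference, 0.18 (24606 pairs) for the reference and 0.020 (24223 pairs) for the saline pair. With bins 5 apart it was 0.044, 0.15 and 0.094. For high and low preference over saline replicate 1 the next-bin values were -0.0781 and -0.0511, and with bins 5 apart 0.0259 and 0.0399. Pileups after the last listed peak of a bin are counted in the next bin, which can lower the next-bin correlation. By how much was not tested.

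**Figure D3:**
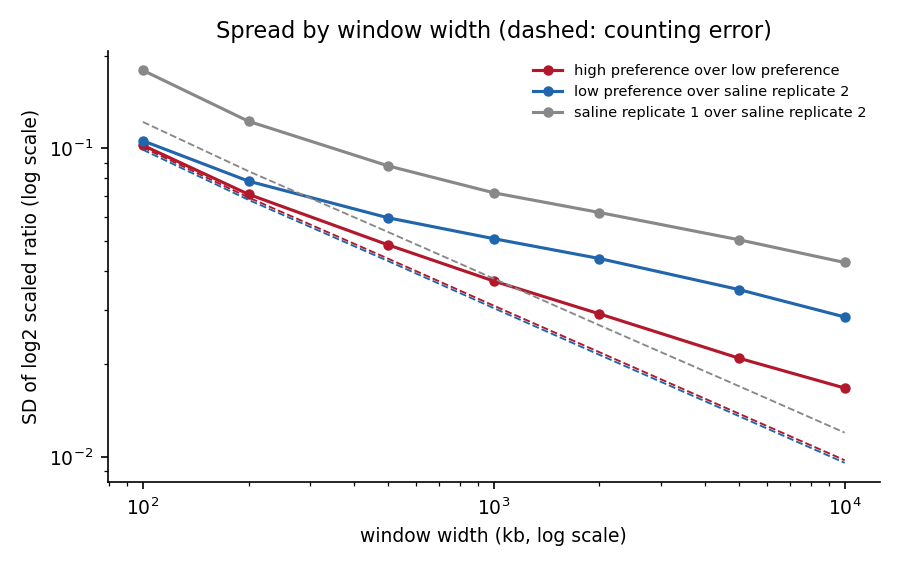
SD of the log2 scaled ratio (y axis, log) against window width in kb (x axis, log) for 3 pairs of libraries, with dashed lines for the SD that counting error alone gives. The high over low preference curve runs from 0.102 at 100 kb to 0.0167 at 10 Mb and lies below the other 2 at each of the 7 widths, and all 3 rise above their dashed lines as windows widen.

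At 1 Mb, 19 of 2496 windows were higher in high preference by over 0.1 on the log2 scale and 9 were higher in low preference, together 1.12%. The reference had 127 of 2501 (5.08%) and the saline pair 393 of 2466 (15.9%). The lowest window was chromosome 1 at 61000001 to 62000000, with a log2 ratio of high to low preference of -0.24, which holds the bins described above. The highest was chromosome 1 at 32000001 to 33000000, at 0.18, where 1385 and 1322 pileups were counted in high and low preference and the log2 ratio to saline replicate 2 was -0.021 for high preference, -0.205 for low preference and -0.252 for saline replicate 1. Saline replicate 1 stood with low preference in this window, and saline replicate 2 with high preference. At 10 Mb the 247 windows ranged from -0.040 to 0.081. The highest was chromosome 1 at 50000001 to 60000000, with a ratio of 1.06 (1.04 to 1.07). The lowest was the first 10 Mb of chromosome 20, with a ratio of 0.972 (0.959 to 0.986).

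Runs of 1 Mb windows, each at least 3% higher in the same library over at least 5 windows, were also sought. Those between high and low preference were chosen by the ratio of these 2 libraries. That choice favours levels of either library that depart from the saline libraries. There were 4 such runs higher in high preference and 2 higher in low preference, with 35 windows (1.4%). The reference comparison had 11 higher in low preference and 18 higher in saline replicate 2, with 174 windows (6.96%), and the saline pair had 21 and 32, with 352 (14.3%). High preference over saline replicate 1 had 36 windows in such runs (1.46%), close to the share between high and low preference. Low preference over saline replicate 1 had 55 (2.23%), and high preference over saline replicate 2 had 135 (5.41%). The longest run between high and low preference spanned 7 Mb, against 10 Mb in the reference.

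The 4 runs higher in high preference lay on chromosomes 1, 6 and 12. On chromosome 1 at 53000001 to 60000000 normalised pileups were 24960 and 23650 in the high and low preference libraries and 24420 and 25060 in saline replicates 1 and 2, and the ratio of high to low preference was 1.06 (1.04 to 1.07). On chromosome 1 at 162000001 to 167000000, which contains the 500 kb run described above, the ratio was 1.06 (1.04 to 1.08). On chromosome 6 at 138000001 to 144000000 it was 1.05 (1.04 to 1.07), and over the first 5 Mb of chromosome 12 it was 1.06 (1.04 to 1.08). In these 4 runs high preference was within 0.01 of saline replicate 2 on the log2 scale, at -0.0059, 0.0020, -0.0039 and 0.0094. Low preference was below saline replicate 2 by more, at -0.084, -0.083, -0.079 and -0.073. Saline replicate 1 over saline replicate 2 was -0.039, -0.025, -0.0093 and 0.0058, closer to high preference than to low preference in all 4.

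The 2 runs higher in low preference also had high preference level with saline replicate 2. On chromosome 12 at 25000001 to 32000000 normalised pileups were 27570 and 28820 in the high and low preference libraries and 27790 and 27710 in saline replicates 1 and 2, and the ratio of high to low preference was 0.957 (0.942 to 0.972). On chromosome 20 at 5000001 to 10000000 they were 20690 and 21830, and 21990 and 20830, with a ratio of 0.948 (0.931 to 0.965). Low preference was above saline replicate 2 by 0.057 and 0.068 on the log2 scale. On chromosome 12 saline replicate 1 was level with saline replicate 2 and low preference stood alone. On chromosome 20 saline replicate 1 was 0.077 above saline replicate 2 on the log2 scale and stood with low preference, so the saline group again held both levels.

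**Figure D4:**
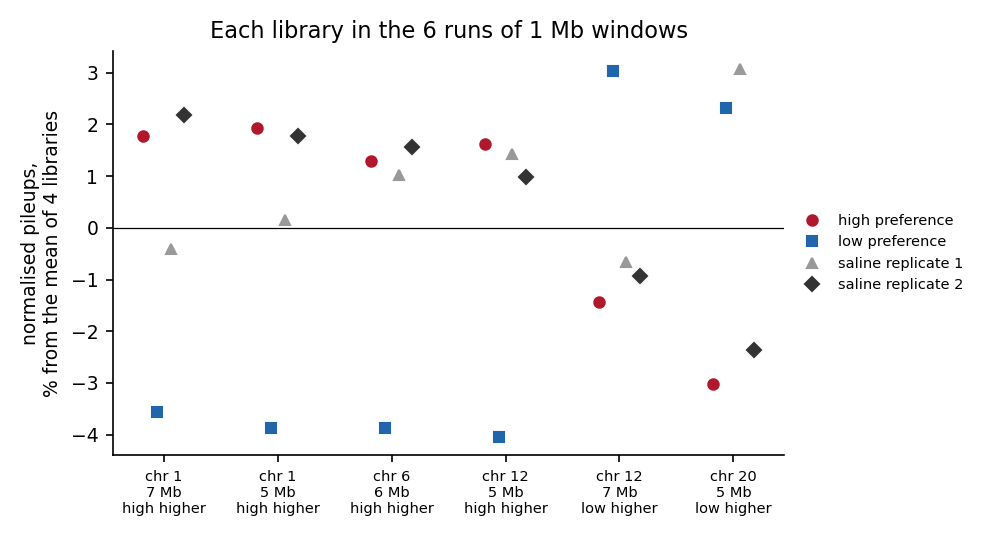
Level of each library in the 6 runs of 1 Mb windows (x axis) as the percentage by which its normalised pileups depart from the mean of the 4 libraries (y axis), with 1 point per library. The low preference library lies below the other 3 in the first 4 runs, above the other 3 in the chromosome 12 run of 7 Mb, and beside saline replicate 1 in the chromosome 20 run.

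Whole chromosomes shifted by at most 1.69% between high and low preference. The log2 ratios of the 20 chromosomes had an SD of 0.0085, against 0.0030 from counting error, and 16 were within 0.01 of 0. In the reference comparison the SD was 0.013 and in the saline pair 0.021. High preference over saline replicate 2 was close to the main comparison, with an SD of 0.0095 and 16 chromosomes within 0.01. Low and high preference over saline replicate 1 gave SDs of 0.0107 and 0.0149. Chromosome 20 fell furthest, with a high preference level 1.69% below low preference (interval of the shift -2.25% to -1.13%). Chromosome 10 was at -1.01% (-1.39% to -0.629%) and chromosome 12 at -0.779% (-1.39% to -0.159%). Chromosome 1 was the highest, at 1.1% (0.833% to 1.36%). Chromosome 17, at 0.388% (-0.0392% to 0.817%), and chromosome 11, at 0.336% (-0.103% to 0.778%), came next, with intervals that include 0.

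The saline libraries also differed on these chromosomes. For chromosome 20, low preference was 1.54% above saline replicate 2 and saline replicate 1 was 1.86% above it, while high preference differed from it by -0.175%. For chromosome 10 the same 3 shifts were 1.86%, 1.91% and 0.830%, all above saline replicate 2, and for chromosome 12 they were 2.12%, 3.76% and 1.35%. On chromosome 1, low preference differed from saline replicate 2 by -0.582%, saline replicate 1 was 0.575% above it and high preference 0.516% above it. Saline replicate 1 was thus on the side of low preference on chromosome 20 and on the side of high preference on chromosome 1.

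**Figure D5:**
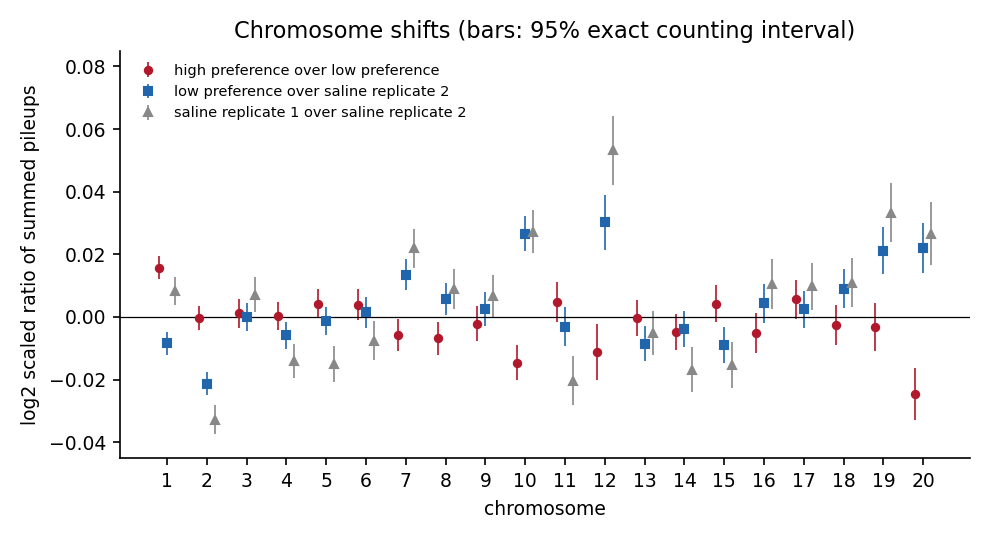
Log2 scaled ratio of each chromosome's summed pileups (y axis) for chromosomes 1 to 20 (x axis) in 3 pairs of libraries, with bars for the exact 95% interval from counting error. High over low preference ranges from -0.025 on chromosome 20 to 0.016 on chromosome 1, against -0.033 to 0.053 in the saline pair.

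The ratio of high to low preference hardly moved with pileup density. Its median over the 10 deciles lay between -0.0056 and 0.0075, and the densest minus the sparsest decile gave -0.0079, with an interval of 0.0093 to either side. In the reference comparison the difference of densest minus sparsest was 0.021 and in the saline pair 0.19, but the saline libraries themselves set the deciles there. Bins in the outermost 2 Mb of each chromosome, 800 in all, had a median 0.0086 above the other 24155, with an interval of 0.010 to either side. Of them 7 were at least 25% higher in high preference and 7 in low preference (1.75% together, against 0.585% of all kept bins), and their log2 ratios had an SD of 0.118 against 0.102. The ends were also more variable in the other comparisons, with 1.24% of end bins past a 25% difference in the reference, against 0.653% of all its bins, and 9.27% in the saline pair, against 6.44%.

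The other readouts of the same lists were noisier. The number of listed peaks per kept bin had an SD of 0.215 on the log2 scale between high and low preference, against 0.184 from counting error, and 0.226 against 0.176 in the reference comparison. The sum of listed heights, in overlapping reads at the summits, gave 0.225. Height and pileup number can part within a bin. On chromosome 1 at 162300001 to 162400000, whose tall pileup in high preference stands out by height, the summed heights were 544 and 306 in the high and low preference libraries and 55 and 427 in saline replicates 1 and 2. The same bin held 396, 464, 227 and 477 pileups, a ratio of high to low preference of 0.925 (0.807 to 1.06). It lies inside the 5 Mb run on chromosome 1 that was higher in high preference by pileups, but did not itself add to it.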

How the data were processed

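PARP1 ChIP-seq peak lists of 4 central amygdala libraries were used, and the input library was not analysed here. Build rn4 and the tools Bowtie 0.12.7 and Picard 1.37 are listed in the submitters' processing notes without their roles. The peak caller and the handling of duplicates were not given in the sources used here. Fragments of about 150 bp were amplified with 15 PCR cycles, per the labels' protocols. The deposited lists, 1 per library, name the running number, position and summit in the file headers. Deposited column 6 was read from its values as a signal, the height in reads with no scaling to depth, and was at least 2. Deposited column 7 was read as a p-value and not used.

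Pileups per bin are the rise of the running number between the last listed peaks of successive bins, with peaks placed by their start. A bin without a listed peak gets 0 and its unlisted pileups pass to the next. Random, unplaced, X, Y and mitochondrial sequence was left out. The counting SD is the square root of the mean over bins of the sum of the 2 inverse counts, as log2. Intervals of differences between medians are 95% intervals from the spread of bins, which are not independent. Regions named are the 5 longest runs, the 5 bins and the 3 chromosomes with the largest shifts in each direction. Regions and windows beyond that rule were chosen after their values were seen, and so were the sums over wider windows, the 1 Mb runs and the 2 stretches. The comparisons and members were chosen with earlier results of these data known. Run finding and scaling were tested on simulated data. Python 3.11.15, numpy 2.4.6, pandas 2.3.3, scipy 1.17.1 and matplotlib 3.10.9 were used. The alternatives covered scaling, bin width and offset, the minimum, the fold and length of runs, listed peaks and heights, and leaving out a saline library.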

Additional observations from a re-analysis of the deposited data

How the results depend on the processing

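No paired analysis was possible because the cocaine groups have 1 library each. Of 111 values under alternatives, 76 stayed within 1.5 times the reported count or SD, or within the interval of the reported difference. The others follow, in each case for high preference first and low preference second where counts are given in pairs. Bins at least 25% higher numbered 1514 and 1486 by listed peaks, 1736 and 1683 by summed heights, 152 and 130 with a minimum over 0, 21 and 18 with a minimum over 200, 729 and 737 with 50 kb bins, 15 and 11 with 200 kb bins and 2 and 1 with 1 Mb bins. The SD between high and low preference was 0.215, 0.225 and 0.0395 by listed peaks, summed heights and 1 Mb bins, and that of the reference 0.226, 0.239 and 0.0527. With saline replicate 1 in place of replicate 2 the reference SD was 0.173. Runs numbered 41 and 29 by listed peaks, 48 and 42 by heights, and 29 and 14 with at least 3 bins. Runs higher in high preference fell to 1 with a minimum over 200 and to 0 with at least 10 bins or at 1.2-fold. The densest minus sparsest difference was -0.0306, -0.0355 and -0.0201 by listed peaks, heights and 1 Mb bins. Its values with either saline library left out of the density deciles were -0.00725 and -0.00709. The SD of chromosome shifts was 0.0191 by listed peaks and 0.0212 by heights. All 14 values for the outermost 2 Mb stayed within the interval, from 0.00192 to 0.0145. Leaving out both stretches of chromosomes 1 and 17, chosen after seeing the data, gave 81 and 58 bins. Listed peaks and heights were taken over the bins kept by pileups. Lower counts per bin raise the counting error of narrower bins and of listed peaks. Other causes were not tested. With 1 library a side, 100 kb bins cannot show differences much under the counting SD of 0.101.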
